A study of Mus musculus with 10 samples.

Results

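The genes of the cell cycle and of DNA replication were examined in RNA from mouse microglia, as a list of 43 symbols matched by NCBI gene ID to the RefSeq gene table of GRCm38. Of the 43, 42 had at least 1 count among the 44086 genes with counts, and 41 exceeded 1 CPM (counts scaled to the size and makeup of each library) in at least 3 libraries and were tested among 28419 genes. The tested members hold 17 genes that act in or before S phase, 22 that act in mitosis and 2, Ccna2 and Mybl2, that act in both. The microglia came from C57BL/6J mice aged 8 to 12 weeks, and each of the 10 libraries was made from 1 mouse. In the vehicle group, 5 mice were gavaged for 8 days with a vehicle of 0.1% Tween 80 and 0.5% Hydroxymethyl Propyl-cellulose, and the other 5 received GW2580, an inhibitor of the CSF1R kinase, at 80 mg/kg/d in that same vehicle. There were 2 male and 3 female mice in each group, and libraries are named by group and replicate number. Brain cells were enriched on a Percoll gradient and taken by magnetic selection for CD11b, a surface protein that monocytes and granulocytes also carry.

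CSF1R binds CSF1 and IL-34, and its kinase drives survival and division of microglia and of other cells of the mononuclear phagocyte lineage. A cell that enters the cycle first loads the MCM helicase at replication origins, then opens them, copies its DNA with polymerases held by PCNA, and makes the nucleotides this needs through ribonucleotide reductase and thymidylate synthase. Mitosis uses another set of genes, whose products build the spindle, attach chromosomes to it and destroy cyclin B once every chromosome is attached. E2F factors drive many of the S phase genes, while many mitosis genes are bound through CCAAT boxes and a CHR element, and both sets are held low in resting cells. Most microglia of the adult brain rest at any given time.

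The letters of these elements were looked for, on both strands, in the 250 bases before the RefSeq start (GRCm38.p6) of 30 of the 43 members. The promoter table holds 35 members, of which 5 (E2f1, Mybl2, Aurka, Mcm7 and Cdc6) were left out because the start given lies more than 100 bases inside the gene, and the same limit left 22803 of 27025 genes for comparison. The E2F letters were TTTCCCGC, TTTCGCGC, TTTGCCGC and TTTGGCGC, the CHR letters TTTGAA and TTTAAA, and the third search was for CCAAT. Of 12 S phase promoters, 2 (16.7%) held E2F letters, against 1 of 18 mitosis promoters (5.56%) and 1.81% of all 22803. CHR letters lay in 4 of 12 S phase promoters (33.3%), in 12 of 18 mitosis promoters (66.7%) and in 26.5% of all promoters. A CCAAT was found in 9 of 12 S phase promoters, in 16 of 18 mitosis promoters (88.9%) and in 7986 of all 22803. These matches describe letters and not binding. The 150 bases before the start are printed for 4 members, with every such match in capitals. They are Mki67 (chr7:135716380-135716529, minus strand) and Ccnb2 (chr9:70421555-70421704, minus strand) for mitosis, and Mcm5 (chr8:75109359-75109508, plus strand) and Mcm6 (chr1:128359706-128359855, minus strand) for S phase, the last pair being the S phase promoters found to hold E2F letters.
Mki67: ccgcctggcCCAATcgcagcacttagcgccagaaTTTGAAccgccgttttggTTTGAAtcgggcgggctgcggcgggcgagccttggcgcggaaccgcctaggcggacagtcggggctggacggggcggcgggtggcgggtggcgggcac
Ccnb2: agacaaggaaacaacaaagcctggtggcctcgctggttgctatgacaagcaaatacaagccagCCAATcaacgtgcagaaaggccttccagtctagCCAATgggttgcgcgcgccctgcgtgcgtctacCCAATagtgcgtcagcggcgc
Mcm5: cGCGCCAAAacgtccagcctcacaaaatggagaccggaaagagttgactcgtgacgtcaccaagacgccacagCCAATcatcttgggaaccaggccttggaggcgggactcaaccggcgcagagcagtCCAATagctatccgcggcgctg
Mcm6: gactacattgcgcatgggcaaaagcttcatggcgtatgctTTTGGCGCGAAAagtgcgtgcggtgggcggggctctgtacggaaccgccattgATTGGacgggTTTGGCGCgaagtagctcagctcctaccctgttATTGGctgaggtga
The Mki67 stretch holds 2 CHR matches and 1 CCAAT, and that of Ccnb2 holds 3 CCAAT. In the Mcm5 stretch 1 E2F match lies at the far end and 2 CCAAT follow it. The Mcm6 stretch holds 3 E2F matches, of which 2 overlap on opposite strands, and 2 CCAAT on the opposite strand (ATTGG).

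Fragments counted on genes ranged from 12550418 to 26079343 per library, and the 41 tested members had a median of 169.5 counts per gene and library, with 3 as the lowest. Fragments on no annotated exon made up 38.4 to 49.1% of the counting records with vehicle and 38.7 to 60.1% with GW2580. Libraries did not all lie with their group. On the first principal component (47.1% of the variance of all genes), Vehicle 1 to 4 lay between -40.5 and -35.0, GW2580 1, 3 and 4 between 37.8 and 46.4, GW2580 2 at -5.20 and GW2580 5 at -45.8. Vehicle 5 stood apart from both groups, at 77.9 on the first and 67.6 on the second component, where the other libraries lay between -52.7 and 39.6. Vehicle 5 had the lowest summed CPM of 7 microglial markers (11366, against up to 25357 in the vehicle group) and the highest of 4 of 5 markers of ependymal and choroid plexus cells, 5 of 5 of lymphocytes and 4 of 5 of erythroid cells. Microglial markers summed to more than any other marker list in 9 of 10 libraries, while in Vehicle 5 those of ependymal and choroid plexus cells summed to 25667 CPM. The comparisons of GW2580 with vehicle and of male with female mice are therefore given with and without Vehicle 5. In bulk RNA, fewer dividing cells and less of each transcript per cell cannot be told apart.

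No member was called different between GW2580 and vehicle. By the thresholds of a fold over 2 and an unadjusted p under 0.05 in edgeR's quasi-likelihood test, 0 of 41 members were called higher and 0 lower, where 4.01% and 6.70% of all genes tested were called. At any fold, 1 member (Mcm3) had an unadjusted p under 0.05 in that test, where 14.7% of all genes did. After Benjamini-Hochberg adjustment over all genes, 0 members and 0% of all genes passed 0.05 (smallest adjusted p among members 0.338). The CPM of the 2 groups overlapped for all 41 members, whereas they did not overlap for 3.03% of all genes. Of the 41, 16 had a fitted log2 fold change above 0 and 25 below 0, from -0.97 (Ccne1) to 0.98 (Kif20a).

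**Figure D1:**
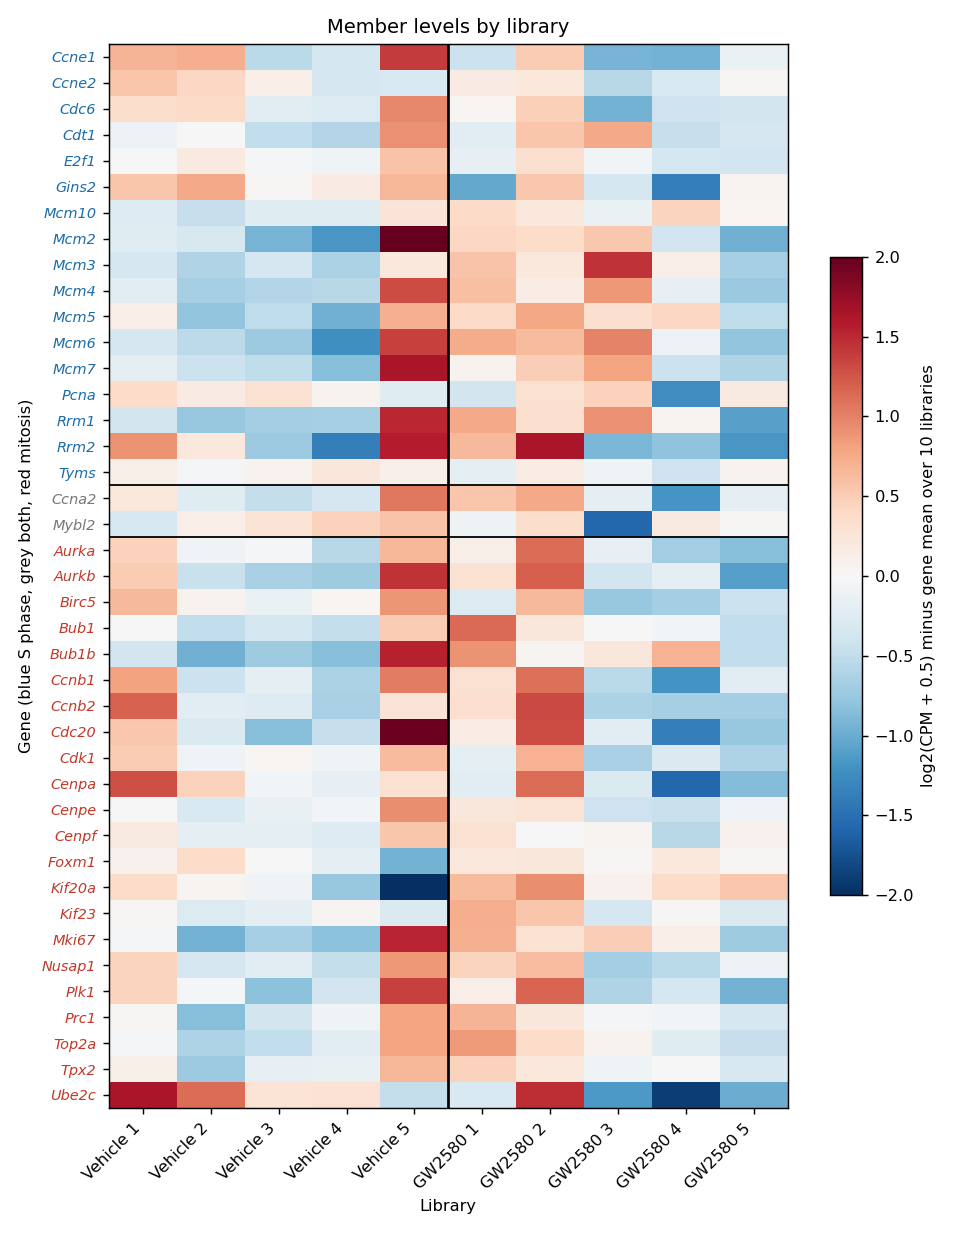
Level of each of the 41 tested members (rows, grouped by class) in each of the 10 libraries (columns), as log2(CPM + 0.5) minus the mean of that gene over all libraries. Vehicle 5 holds the highest level of 22 members and GW2580 2 that of 7, and the black line separates vehicle from GW2580.

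Neither the S phase genes nor the mitosis genes separated the groups. Averaged over the 17 S phase genes, log2 CPM was 3.83 ± 0.57 in vehicle mice and 3.81 ± 0.40 in GW2580 mice (SD over 5 libraries each). Over the 22 mitosis genes it was 3.18 ± 0.44 and 3.15 ± 0.54. The median log2 fold change was -0.16 for S phase genes and -0.06 for mitosis genes, beside -0.03 over all genes tested. The S phase mean minus the mitosis mean in the same library was 0.65 ± 0.27 with vehicle and 0.67 ± 0.28 with GW2580, so it differed between the groups by less than the spread between mice. It was largest in GW2580 3 (1.10) and Vehicle 5 (1.02) and smallest in Vehicle 1 (0.34). Without Vehicle 5, it was 0.55 ± 0.19 in the vehicle group (n = 4). The vehicle means were then 3.60 ± 0.29 for S phase genes and 3.05 ± 0.36 for mitosis genes. The median member spanned 4.34-fold between its highest and lowest library.

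**Figure D2:**
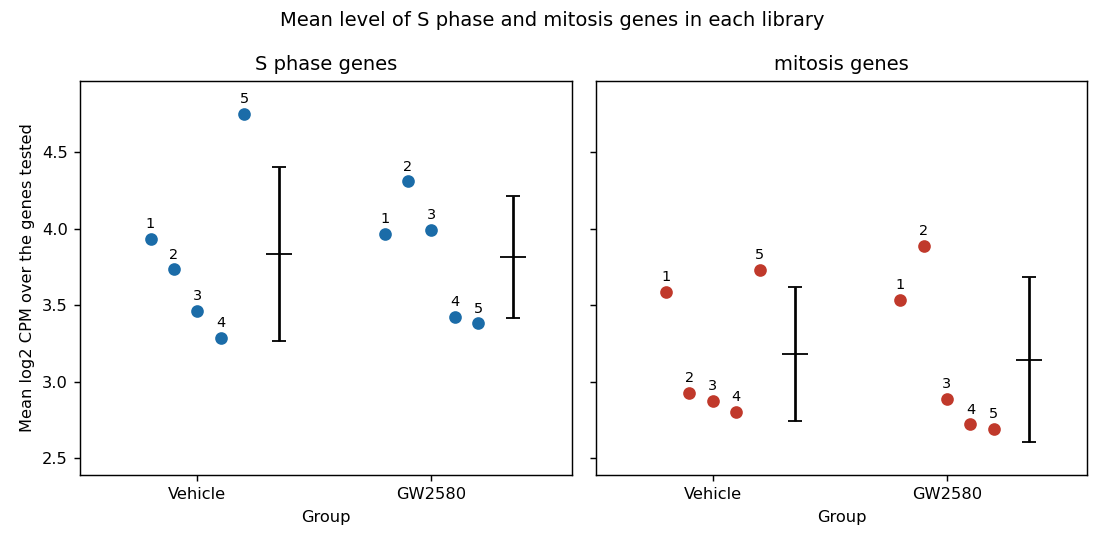
Mean log2 CPM over the 17 S phase genes (left) and the 22 mitosis genes (right) in each library, numbered by replicate, with the mean and SD of each group beside the points (n = 5 each). Vehicle 5 is highest for S phase (4.75) and GW2580 2 for mitosis (3.89), and the groups overlap in both panels.

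The licensing genes load the helicase, and their values are given in order of replicate number, 1 to 5. Mcm5 (chr8:75109468-75128439), a subunit of the MCM helicase, was at 23.2, 12.04, 14.6, 10.6 and 34.8 CPM in the vehicle libraries and 27.7, 36.5, 26.5, 28.1 and 14.7 CPM in the GW2580 libraries. Vehicle 5 was above 4 of the 5 GW2580 libraries, and apart from it the vehicle libraries lay below every GW2580 library except GW2580 5. The fitted log2 fold change was 0.49 ± 0.37 (SE, adjusted p = 0.547 in edgeR's quasi-likelihood test, two-sided exact permutation p = 0.175). Mcm3 (chr1:20802966-20820312), another subunit, was at 31.5, 26.0, 31.4, 25.5 and 46.1 CPM in the vehicle libraries and 59.4, 46.2, 109.6, 43.5 and 24.9 CPM in the GW2580 libraries. GW2580 3 stood far above every other library, and GW2580 5 below all 5 vehicle libraries. Mcm3 was the sole member with an unadjusted p under 0.05 in edgeR's test, at a log2 fold change of 0.82 ± 0.38 (edgeR p = 0.0485, adjusted p = 0.338, two-sided exact permutation p = 0.119).

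Mcm2 (chr6:88883474-88898780) was the member whose level in Vehicle 5 lay farthest above the other vehicle libraries. Its values were 10.3, 9.80, 6.27, 5.23 and 83.5 CPM in the vehicle libraries and 16.6, 16.1, 18.1, 9.37 and 6.09 CPM in the GW2580 libraries. Vehicle 5 was 10.6-fold above the mean of the other vehicle libraries and above all 5 GW2580 libraries. Mcm6 (chr1:128331575-128359705) was at 15.3, 13.4, 11.5, 8.04 and 51.2 CPM in the vehicle libraries and 32.8, 30.5, 39.1, 17.9 and 11.1 CPM in the GW2580 libraries. Vehicle 5 was again highest, and GW2580 5 lay among the other vehicle libraries. Mcm4 and Mcm7 showed a like gap, with Vehicle 5 at 39.4 and 90.3 CPM against at most 13.5 and 25.0 CPM in the other vehicle libraries. With all libraries, the log2 fold changes of Mcm2, Mcm4, Mcm6 and Mcm7 were -0.80 ± 0.69, 0.16 ± 0.45, 0.40 ± 0.50 and -0.10 ± 0.49 (SE), none with an unadjusted p under 0.05. Cdt1 and Cdc6, which load the helicase, were at 17.3 ± 8.46 CPM in the vehicle group and 18.6 ± 7.59 CPM in the GW2580 group (Cdt1) and at 6.59 ± 2.59 CPM in the vehicle group and 4.59 ± 1.90 CPM in the GW2580 group (Cdc6), SD over n = 5 each. Their log2 fold changes were 0.10 ± 0.37 and -0.52 ± 0.37.

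At the fork, PCNA is the ring that holds polymerases on DNA. Pcna (chr2:132249286-132253180) was at 117, 101, 112, 94.6 and 76.1 CPM in the vehicle libraries and 70.2, 112, 125, 38.1 and 103 CPM in the GW2580 libraries. The groups overlapped, and GW2580 4 was lowest at 38.1 CPM (log2 fold change -0.16 ± 0.35, adjusted p = 0.848). Gins2 encodes a subunit of the GINS complex of the active helicase, and was at 9.09, 10.6, 6.18, 6.83 and 9.89 CPM in the vehicle libraries and 2.72, 9.03, 4.67, 2.04 and 6.30 CPM in the GW2580 libraries. GW2580 1, 3 and 4 lay below all vehicle libraries, while GW2580 2 lay above 2 of them (log2 fold change -0.79 ± 0.39, edgeR p = 0.0642, two-sided exact permutation p = 0.0476). Mcm10, which helps to start the fork, was at 10.3 ± 2.20 CPM in the vehicle group and 13.6 ± 2.28 CPM in the GW2580 group (SD, n = 5 each), with a log2 fold change of 0.39 ± 0.27 (adjusted p = 0.488). Cdc45, the helicase partner of GINS, had 0 counts in all 10 libraries.

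For nucleotide supply, ribonucleotide reductase has a large subunit, Rrm1, that persists through the cycle and a small one, Rrm2, that is made in S phase. Rrm2 (chr12:24708254-24714146) was at 25.6, 15.7, 7.94, 4.94 and 40.8 CPM in the vehicle libraries and 21.4, 43.0, 6.95, 7.53 and 5.75 CPM in the GW2580 libraries. GW2580 2, Vehicle 5, Vehicle 1, GW2580 1 and Vehicle 2 were high and the other 5 libraries low, so the high libraries came from both groups (log2 fold change -0.17 ± 0.64, adjusted p = 0.919). Rrm1 was at 27.3 ± 25.0 CPM in the vehicle group and 31.6 ± 14.2 CPM in the GW2580 group (SD, n = 5 each), with Vehicle 5 at 72.0 CPM (log2 fold change 0.21 ± 0.51). Tyms, thymidylate synthase (chr5:30038546-30073645), was at 36.7, 33.0, 35.8, 39.9 and 36.5 CPM in the vehicle libraries and 29.7, 37.8, 31.9, 25.4 and 35.7 CPM in the GW2580 libraries. It varied least of all members, by 1.57-fold from lowest to highest library (log2 fold change -0.18 ± 0.25, adjusted p = 0.752).

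Among the genes of G1/S control, cyclin E1 partners CDK2 at entry into S phase. Ccne1 (chr7:38097984-38107490) was at 5.12, 5.32, 1.92, 2.24 and 8.76 CPM in the vehicle libraries and 2.11, 4.48, 1.33, 1.33 and 2.71 CPM in the GW2580 libraries. Vehicle 5 was highest and GW2580 3 and GW2580 4 lowest, and the groups overlapped. Its log2 fold change of -0.97 ± 0.48 was the lowest of the 41 (edgeR p = 0.0603, adjusted p = 0.356, two-sided exact permutation p = 0.135). E2f1 (chr2:154559400-154569892), an E2F activator that is itself an E2F target, was at 9.67, 11.1, 9.61, 9.13 and 14.6 CPM in the vehicle libraries and 8.58, 12.3, 9.39, 7.48 and 7.31 CPM in the GW2580 libraries. The libraries spanned 2.00-fold and the groups overlapped (log2 fold change -0.27 ± 0.27, adjusted p = 0.658). Ccne2, the other cyclin E, stood near the filter at 2.10 ± 0.717 CPM in the vehicle group and 1.76 ± 0.486 CPM in the GW2580 group (log2 fold change -0.25 ± 0.37).

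Of the genes of both phases, Ccna2 encodes cyclin A2 and Mybl2 a factor that binds mitosis promoters. Ccna2 was at 8.84 ± 4.69 CPM in the vehicle group and 8.48 ± 4.21 CPM in the GW2580 group and Mybl2 at 14.3 ± 3.25 CPM in the vehicle group and 11.1 ± 4.46 CPM in the GW2580 group (SD, n = 5 each). Their log2 fold changes were -0.06 ± 0.42 and -0.36 ± 0.36.

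Cdk1 is the kinase that drives entry into mitosis with cyclin B. Cdk1 (chr10:69335146-69352912) was at 22.5, 14.98, 16.1, 14.8 and 24.6 CPM in the vehicle libraries and 13.8, 25.8, 9.78, 12.7 and 10.1 CPM in the GW2580 libraries. Vehicle 1, Vehicle 5 and GW2580 2 stood above the rest (log2 fold change -0.37 ± 0.33, adjusted p = 0.610). Ccnb1 (chr13:100778739-100786486), a cyclin B, was at 11.4, 4.55, 5.43, 3.90 and 13.3 CPM in the vehicle libraries and 7.86, 14.04, 4.17, 2.46 and 5.28 CPM in the GW2580 libraries. The same 3 libraries were highest, and GW2580 4 was lowest (log2 fold change -0.19 ± 0.48, adjusted p = 0.871). Ccnb2, the other cyclin B, was at 20.7, 7.49, 7.27, 5.45 and 10.6 CPM in the vehicle libraries and 11.3, 22.7, 5.50, 5.40 and 5.35 CPM in the GW2580 libraries. Vehicle 1 and GW2580 2 were about level and above every other library (log2 fold change -0.04 ± 0.48, adjusted p = 0.979). Plk1, Aurka and Aurkb, kinases of the centrosome and spindle, had log2 fold changes of -0.26 ± 0.50, -0.07 ± 0.42 and -0.13 ± 0.52. Foxm1, a factor that drives mitosis genes, had 0.25 ± 0.32, and was lowest in Vehicle 5 (1.74 CPM, against 3.27 to 5.04 CPM in the rest).

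The checkpoint genes Bub1 and Bub1b hold anaphase until chromosomes are attached, and Cdc20 and Ube2c then serve the complex that destroys cyclin B. Bub1b (chr2:118598202-118641592) was at 9.46, 6.23, 7.43, 6.72 and 37.4 CPM in the vehicle libraries and 23.7, 13.1, 14.7, 20.6 and 8.73 CPM in the GW2580 libraries. Vehicle 5 was highest, and apart from it only Vehicle 1 lay above a GW2580 library (log2 fold change 0.27 ± 0.50, adjusted p = 0.826). Ube2c (chr2:164769929-164772902) was at 31.9, 22.1, 12.03, 12.2 and 7.02 CPM in the vehicle libraries and 7.96, 28.6, 4.22, 2.32 and 4.74 CPM in the GW2580 libraries. Vehicle 1, GW2580 2 and Vehicle 2 were highest, in that order, and Vehicle 5 lay below the other vehicle libraries (log2 fold change -0.84 ± 0.62, adjusted p = 0.529). Bub1 and Cdc20 had log2 fold changes of 0.42 ± 0.37 and -0.48 ± 0.60, with Cdc20 at 40.1 CPM in Vehicle 5 and 3.55 to 25.2 CPM elsewhere.

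Of the genes of chromosome structure, Mki67 encodes the Ki-67 protein used to stain dividing cells and Top2a the enzyme that untangles DNA strands. Mki67 (chr7:135689784-135716450) was at 13.1, 6.72, 8.27, 7.35 and 39.5 CPM in the vehicle libraries and 22.1, 16.7, 19.0, 14.6 and 7.92 CPM in the GW2580 libraries. Vehicle 5 was highest, GW2580 1, 3 and 2 followed, and GW2580 5 lay among the other vehicle libraries (log2 fold change 0.10 ± 0.49, adjusted p = 0.938). Top2a (chr11:98992947-99024199) was at 14.4, 9.59, 10.4, 12.63 and 26.3 CPM in the vehicle libraries and 27.5, 19.4, 15.7, 12.5 and 10.7 CPM in the GW2580 libraries. GW2580 1 and Vehicle 5 were highest and about level (log2 fold change 0.23 ± 0.36, adjusted p = 0.788). Among the genes of spindle, centromere and cytokinesis, Kif20a, a kinesin of the last step of division, was at 3.32, 2.59, 2.34, 1.26 and 0.169 CPM in the vehicle libraries and 4.11, 5.14, 2.67, 3.31 and 3.79 CPM in the GW2580 libraries. Vehicle 5 held 3 counts of it, and 4 of the 5 GW2580 libraries lay at or above 3.31 CPM (log2 fold change 0.98 ± 0.53, edgeR p = 0.0854, two-sided exact permutation p = 0.0238). Cenpa, the histone that marks the centromere, was at 29.1, 16.2, 11.2, 10.3 and 14.5 CPM in the vehicle libraries and 9.91, 25.7, 9.39, 3.598 and 6.16 CPM in the GW2580 libraries. Vehicle 1 and GW2580 2 stood above the rest and GW2580 4 was lowest (log2 fold change -0.57 ± 0.48, adjusted p = 0.579). Birc5 (survivin), Kif23, Tpx2, Cenpe, Cenpf, Nusap1 and Prc1 had log2 fold changes between -0.57 (Birc5) and 0.34 (Kif23) and none had an unadjusted p under 0.05. Kif11, a motor that separates the spindle poles, had 1 count in all.

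Cdc45 and Kif11 were not tested. Both are annotated on 2 sequences of the assembly, and of 1117 protein-coding genes annotated on more than 1 sequence 25.9% had 0 counts, against 1.79% of 20748 annotated on 1. Fragments that aligned to more than 1 place were not counted, so the 2 genes cannot be read as silent. Of the 41 tested members, 0 are annotated on more than 1 sequence.

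Levels were compared between genes only per length, as TPM (counts per base of gene, scaled to a common total), within the vehicle group. The median over the 5 vehicle libraries was 133 TPM for Pcna, 23.0 TPM for Ube2c and 17.0 TPM for Mcm3, the 3 highest members. At the other end, Kif20a was at 1.02 TPM, Ccne2 at 1.08 TPM and Mki67 at 1.40 TPM. By mean TPM over the vehicle libraries, the median member lay above 64.6% of all genes tested. The 6 MCM subunits, which form 1 complex in equal numbers, ranged from 4.49 TPM (Mcm2) through 4.66 (Mcm6), 5.16 (Mcm4), 7.16 (Mcm5) and 10.9 (Mcm7) to 17.0 TPM (Mcm3). Within GW2580 the same subunits ranged from 9.45 TPM (Mcm2) to 60.0 TPM (Mcm3). TPM are not adjusted for the makeup of the library, so they are not set against each other between the groups.

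Vehicle 5 had the largest bearing on the S phase median of the libraries left out in turn. It was the highest library for 22 of 41 members, 9 of 17 for S phase and 11 of 22 for mitosis, and 20 members were more than 2-fold above the mean of the other vehicle libraries there. Kif20a, Foxm1 and Ube2c went the other way, at a ratio of 0.0709, 0.432 and 0.359 to that mean. Vehicle 5 stood apart over all genes as well, and the matching shares of all genes are not given here. These counts therefore cannot be read as a trait of the members. Without Vehicle 5, the median log2 fold change was 0.44 for S phase genes and 0.18 for mitosis genes, beside 0.05 over all genes, and 12 members changed the sign of their fold change. Then 2 members (4.88%) were called higher, Mcm6 and Bub1b, where 6.18% of all genes were, and 0 were called lower, where 6.74% were. With an unadjusted p under 0.05 at any fold, 9 members (22.0%) were higher, where 13.0% of all genes were. These were Mcm2, Mcm3, Mcm4, Mcm5, Mcm6, Mcm10, Rrm1, Bub1b and Mki67. The smallest adjusted p among members was 0.163, and the 2 groups did not overlap for 1 member (Mcm10), against 6.96% of all genes.

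The helicase genes stood together in this setting. All 6 of Mcm2 to Mcm7 had log2 fold changes above 0 without Vehicle 5, from 0.65 (Mcm7) to 1.12 (Mcm6), with a median of 0.79, whereas 4 of 6 were above 0 with all libraries. Mcm6 had 1.12 ± 0.36 (SE; adjusted p = 0.163), and Bub1b 1.12 ± 0.31 (adjusted p = 0.163). Rrm1 had 0.97 ± 0.35 (adjusted p = 0.168) and Mki67 0.86 ± 0.32 (adjusted p = 0.170). The mitotic kinases and cyclins stayed closer to 0, with a median of 0.09 and 0 of 7 at an unadjusted p under 0.05, and the genes of G1/S control were below 0 for 3 of 3, with a median of -0.36. Leaving out Vehicle 5, which stood apart, and GW2580 5, which lay among the vehicle libraries, put 6 members higher at an adjusted p under 0.05 (Mcm3, Mcm5, Mcm6, Rrm1, Bub1b and Mki67), where 6.65% of all genes were. GW2580 5 is the GW2580 library nearest to Vehicle 1 to 4 on the first component, so leaving it out makes the groups more distinct by construction.

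**Figure D3:**
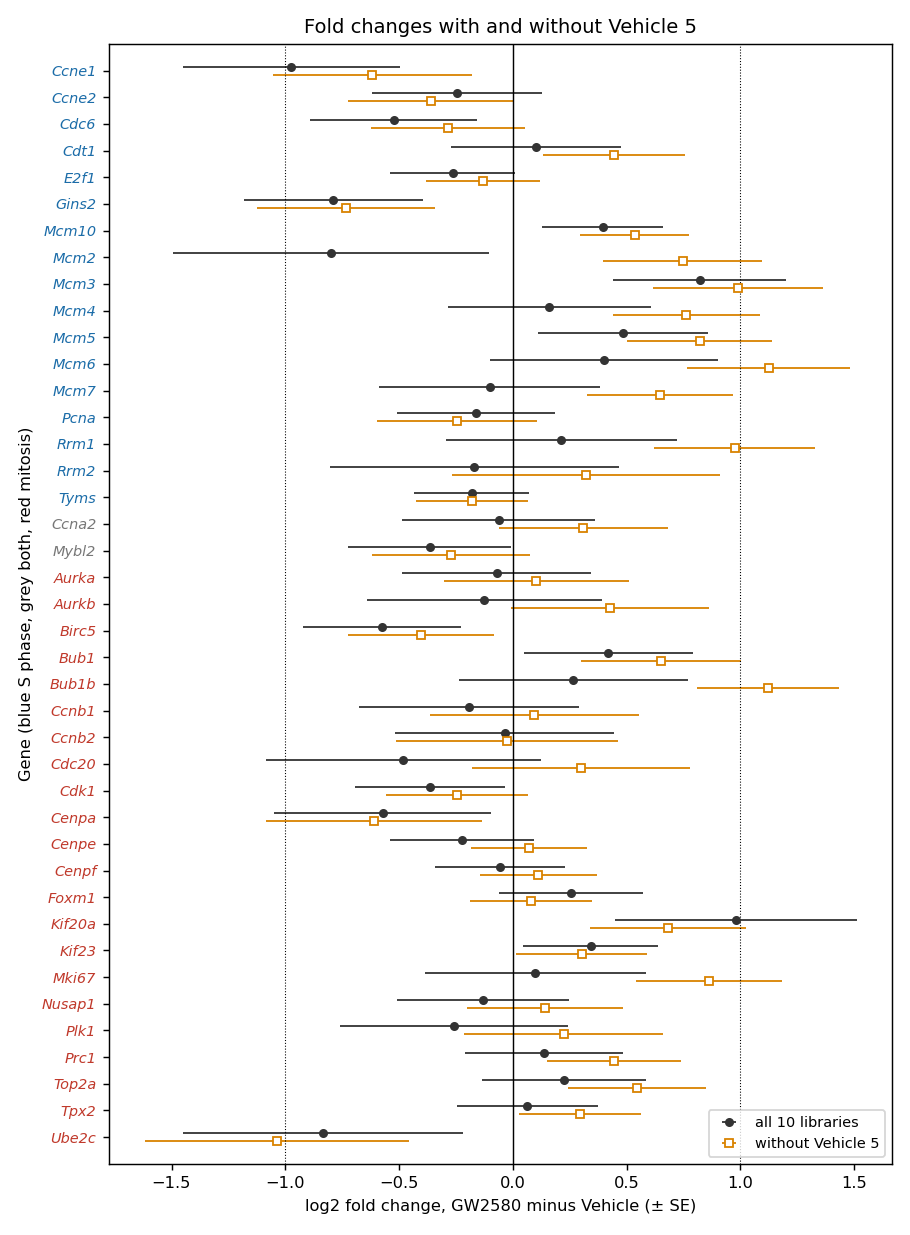
Fitted log2 fold change (GW2580 minus vehicle) with its SE for each of the 41 members, with all 10 libraries (filled circles) and without Vehicle 5 (open squares). Dotted lines mark a fold of 2, and Mcm2 goes from -0.80 to 0.75 while Tyms stays at -0.18.

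Markers of blood precursors varied across the same libraries. Elane and Mpo, which encode granule proteins made in granulocyte precursors, summed to 631 CPM in Vehicle 1 and 810.3 CPM in GW2580 2, and to 5.28 to 221 CPM in the other 8. Vehicle 1 and GW2580 2 were the libraries in which Ccnb2, Cenpa and Ube2c stood highest. Once Vehicle 5 was set aside, GW2580 2 held the highest level of 10 of the 22 mitosis genes. GW2580 1 then held that of 8 and Vehicle 1 that of 3. The mitosis mean was 3.54 in GW2580 1 (197 CPM of Elane and Mpo) and 2.93 in Vehicle 2 (221 CPM). Alas2, which makes haem in erythroid precursors, was at 250.03 CPM in Vehicle 5, 52.4 CPM in GW2580 4 and at most 10.1 CPM in the rest. Other erythroid markers ranked the libraries otherwise. Hba-a1 and Hbb-bs were also highest in Vehicle 5, but next in GW2580 5 (176 and 116 CPM). There Alas2 was at 3.99 CPM and the S phase mean was 3.38. Alas2 did not follow the S phase genes in every library. The S phase mean was 4.75 in Vehicle 5, 3.43 in GW2580 4 and 4.31 in GW2580 2, where Alas2 was at 10.1 CPM. Of 7 monocyte and granulocyte markers, 5 were highest in Vehicle 1, and their summed CPM ranged from 274 to 13400.4 with vehicle and from 159 to 3676 with GW2580. This wider list did not follow the mitosis genes in every library, since it summed to 3605 CPM in GW2580 5, close to the 3676 CPM of GW2580 2, while the mitosis mean of GW2580 5 was the lowest of all (2.69). Erythroid markers summed to 74.99 to 1722 CPM with vehicle and 54.8 to 332 CPM with GW2580, and lymphocyte markers to 29.7 to 311 and 15.7 to 73.3 CPM. Markers of neuroblasts and neural stem cells, which divide in the adult brain, summed to 19.6 to 40.7 CPM with vehicle and 13.9 to 25.1 CPM with GW2580, with the highest sum in Vehicle 5, where Egfr was at 25.9, Sox11 at 13.4 and Dcx at 0.337 CPM. The part of these cells in the member levels was not tested.

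**Figure D4:**
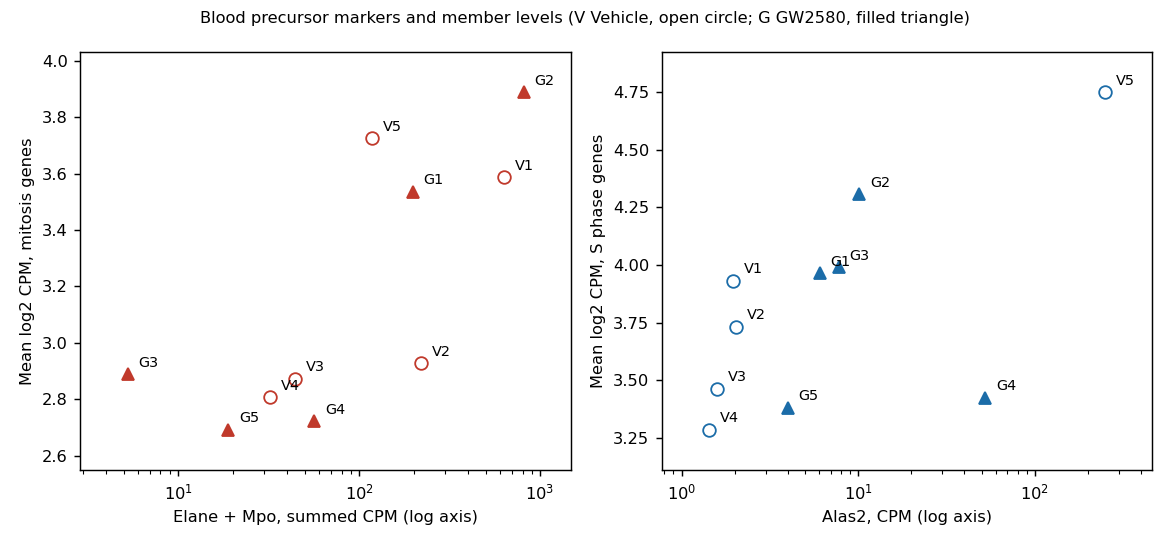
Left, mean log2 CPM of the 22 mitosis genes against the summed CPM of Elane and Mpo, and right, mean log2 CPM of the 17 S phase genes against the CPM of Alas2, 1 point per library with log x axes. GW2580 2 and Vehicle 1 lie at the right of the left panel (810.3 and 631 CPM) and Vehicle 5 at the top right of the right panel (250.03 CPM). In the right panel GW2580 4 is second in Alas2 (52.4 CPM), with an S phase mean of 3.43.

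Members called by sex were higher in male than in female mice, and their number differed between the sets of libraries fitted. In a model of treatment and sex, a comparison added after the data were seen, 4 of 41 members (9.76%) were called higher in male mice, where 0.806% of all genes were, and 0 were called lower, where 0.813% were. Ube2c was at 22.6 ± 10.6 CPM in the 4 male mice and 7.09 ± 4.18 CPM in the 6 female mice (SD), a log2 difference of 1.84 ± 0.41 (SE; adjusted p = 0.260). Ccnb2 was at 15.6 ± 7.33 CPM in the 4 male mice and 6.60 ± 2.10 CPM in the 6 female mice (log2 difference 1.26 ± 0.37, adjusted p = 0.876), and Cenpa at 20.2 ± 8.78 CPM in the 4 male mice and 9.20 ± 3.86 CPM in the 6 female mice (log2 difference 1.20 ± 0.37). Rrm2 had a log2 difference of 1.30 ± 0.60, and its female values hold Vehicle 5 at 40.8 CPM. After adjustment over all genes, 0 members passed 0.05. Without Vehicle 5, 9 members (Rrm2, Ccne1, Ccnb1, Ccnb2, Plk1, Aurkb, Cdc20, Ube2c and Cenpa) were called higher in male mice, where 1.14% of all genes were, and 0 lower, where 0.942% were. Rrm2 then had a log2 difference of 2.00 ± 0.31 and was the member that passed after adjustment (adjusted p = 0.0141). Without Vehicle 1 and GW2580 2, both male, 1 member (Ube2c, 1.09 ± 0.44) was called higher, where 0.574% of all genes were, and 0 lower, where 0.287% were. That fit keeps only Vehicle 2 and GW2580 1 as male libraries, 1 per group. Its number of calls therefore cannot be set against those of the other fits. With all libraries, of the 22 mitosis genes 20 were above 0 in male minus female, with a median of 0.47, while S phase genes had a median of 0.01 and all genes of -0.09. Without Vehicle 5, 22 of 22 mitosis genes were above 0 (median 0.63, S phase 0.30, all genes -0.04). Without Vehicle 1 and GW2580 2, 19 of 22 mitosis genes were above 0 (median 0.26, S phase -0.10, all genes -0.11). Elane and Mpo summed to 197 to 810.3 CPM in the 4 male libraries and 5.28 to 117 CPM in the 6 female ones, so they moved with sex as well, and their part in this difference was not tested. In the interaction of treatment and sex, 0 of 41 members had an unadjusted p under 0.05, where 2.52% of all genes did, and 0 passed an adjusted p of 0.05. The interaction was above 0 for 37 of 41 members (median 0.92 on the log2 scale, 0.03 over all genes), and Vehicle 5 is 1 of the 3 female vehicle libraries it rests on. Without Vehicle 5 the median interaction of the members was 0.28 (-0.11 over all genes), with 29 of 41 above 0 and 0 at an unadjusted p under 0.05, where 5.13% of all genes were. Without Vehicle 1 and GW2580 2 the median was 0.97 and 0 members were under that p, where 1.99% of all genes were.

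**Figure D5:**
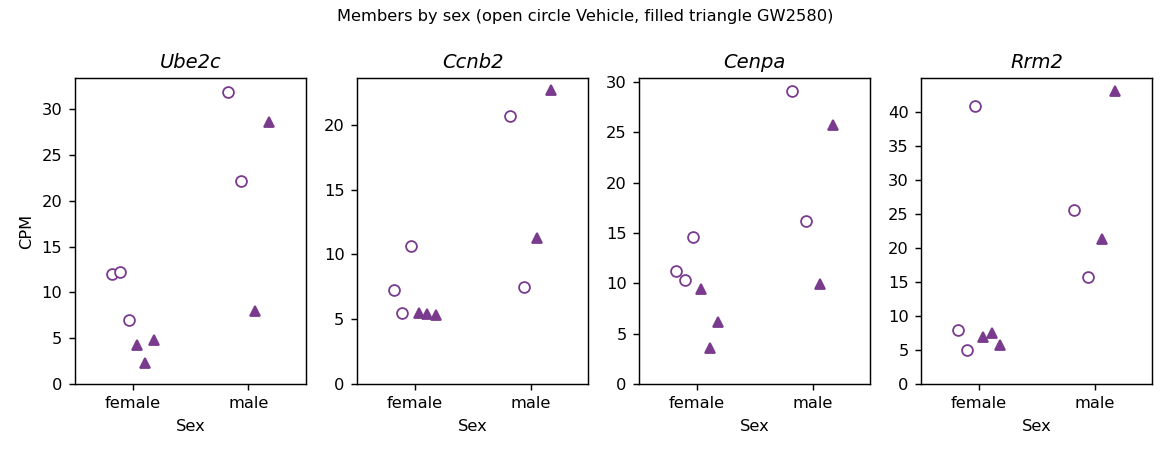
CPM of Ube2c, Ccnb2, Cenpa and Rrm2 in each library by sex (6 female and 4 male mice), with vehicle as open circles and GW2580 as filled triangles. For Ube2c, 3 of the 4 male libraries lie above every female library, and for Rrm2 the highest female point is Vehicle 5.

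The wider machinery of the cell cycle was given by 4 further lists. Of 53 other replication genes 52 were tested, and 0 were called higher and 3 lower, where 4.01% and 6.70% of all genes were. Dut, which clears dUTP, was at 16.5 ± 6.33 CPM in the vehicle group and 7.45 ± 3.89 CPM in the GW2580 group (log2 fold change -1.15), Rpa3, a subunit of the protein that coats single-stranded DNA, at 10.3 ± 4.75 CPM in the vehicle group and 4.19 ± 3.28 CPM in the GW2580 group (-1.30), and Recql4, a helicase, at 5.40 ± 4.53 CPM in the vehicle group and 2.54 ± 0.683 CPM in the GW2580 group (-1.09). Recql4 rests on Vehicle 5, at 13.1 CPM there. Of 57 other mitosis genes 56 were tested, with 0 called higher and 3 lower, namely Cks1b, a partner of CDK1, Anapc11, the catalytic subunit of the anaphase complex, and Pttg1 (securin). Cks1b was at 18.1 ± 2.28 CPM in the vehicle group and 8.47 ± 4.28 CPM in the GW2580 group (log2 fold change -1.09, adjusted p = 0.280). Anapc11 and Pttg1 had -1.30 and -1.12. Of these 6 calls, 0 passed an adjusted p of 0.05.

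Of 43 genes of G1 and cell cycle arrest 42 were tested, with 1 called higher and 3 lower, where 4.01% and 6.70% of all genes were. Cables1, which binds cyclin-dependent kinases, was at 87.0, 87.8, 86.6, 104 and 107 CPM in the vehicle libraries and 191, 163, 502, 197 and 86.8 CPM in the GW2580 libraries. GW2580 3 stood highest, 4 of 5 GW2580 libraries lay above all vehicle libraries, and GW2580 5 lay at the vehicle level (log2 fold change 1.27, adjusted p = 0.280). Ccnd2 (cyclin D2), Lin37, a subunit of the DREAM complex that silences cell cycle genes, and Cdkn1c, a kinase inhibitor, were the 3 called lower, at -1.18, -1.16 and -1.85. Ccnd2 and Cdkn1c rest on Vehicle 5, which held 216 and 457 CPM against 30.1 to 75.1 and 20.3 to 35.1 CPM in the other vehicle libraries. Of 21 genes of checkpoints and DNA repair 20 were tested, and 0 were called in either direction, with a median log2 fold change of 0.21 and 16 above 0. The medians of the other 3 lists were -0.12 for replication, -0.02 for mitosis and -0.08 for G1 and arrest. Without Vehicle 5, the medians were 0.0051 for replication (26 of 52 above 0), 0.16 for mitosis (39 of 56), 0.26 for G1 and arrest (27 of 42) and 0.34 for checkpoints and repair (17 of 20), beside 0.05 over all genes. Then Rpa3 and Dut were called lower among replication genes, Cks1b, Anapc11 and Pttg1 among mitosis genes, and Lin37, Cdkn1b and Cdkn2a among those of G1 and arrest, where 6.74% of all genes were. Cables1 was again the sole gene of these lists called higher, where 6.18% of all genes were.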

How the data were processed

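Microglial RNA of 10 mice was sequenced, 1 library per mouse. The authors aligned read pairs to GRCm38 with STAR and deposited a raw count for each RefSeq gene and library, made from fragments that aligned to 1 place and overlapped its exons on either strand. The file headers name featureCounts 1.6.3. Fragments not assigned to a gene stayed out of library sizes and tests. Of 46152 genes counted, 46029 matched a RefSeq symbol.

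From the deposited counts, genes over 1 CPM in at least 3 libraries were kept and scaled by TMM factors (0.691 to 1.61). Treatment, the only term, was tested with edgeR 4.0.16 (R 4.3.3) by its two-sided quasi-likelihood F test, with Benjamini-Hochberg adjustment over all genes, and the study's thresholds gave the calls. The SE is the log2 fold change divided by the root of F. Exact permutation tests took log2 CPM (prior count 2) over 252 ways of choosing 5 of 10 libraries (smallest possible p 0.00794). The fit was tested on simulated counts. Alternatives were DESeq2 1.42.0, limma 3.58.1 (voom), other scalings and filters, added terms and left-out libraries.

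The members and lists were chosen with earlier results of these data known. Every member is named. Values in each library are given for most members called in a comparison, but not for Plk1, Aurkb, Cdc20 and Rrm1, called with libraries left out. Such values are also given for Mki67, Top2a, Cdk1, Ccnb1, Mcm5, Pcna, Rrm2, Tyms, Ccne1 and E2f1. Those of Mcm2, Mcm3, Gins2, Kif20a and Cables1 were added after their values were seen. Reads carried no molecular identifiers, so counts are not numbers of molecules.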

Additional observations from a re-analysis of the deposited data

Results flagged for a closer look

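In 15 of 82 sets of 5 values (a member in a group), 1 library stood apart from the other 4. The gap to the nearest value was over 0.71 of the range of the set. About 1 in 20 independent sets of normal values pass that limit. The 82 sets share 10 libraries, so the 15 cannot be read against that rate. The share over all genes is not given here. All 15 were at the high end, 11 of them in Vehicle 5 and 4 in GW2580 2.

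In Vehicle 5 the S phase genes that stood apart were Cdt1 (31.8 CPM), Mcm10 (14.1 CPM), Mcm2 (83.5 CPM), Mcm4 (39.4 CPM), Mcm6 (51.2 CPM), Mcm7 (90.3 CPM) and Rrm1 (71.96 CPM). The mitosis genes that stood apart there were Bub1b (37.4 CPM), Cdc20 (40.1 CPM), Cenpe (23.3 CPM) and Mki67 (39.5 CPM). The next highest vehicle library was at 10.3 CPM for Mcm2, at 19.1 CPM for Rrm1 and at 13.1 CPM for Mki67.

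GW2580 2 stood apart from the other GW2580 libraries for 4 mitosis genes and 0 S phase genes. These were Birc5 (25.1 CPM), Cdk1 (25.8 CPM), Cenpa (25.7 CPM) and Ube2c (28.6 CPM). The next highest GW2580 library, GW2580 1 in each case, was at 13.0, 13.8, 9.91 and 7.96 CPM. The summed Elane and Mpo of GW2580 2 was 810.3 CPM, against 197 CPM in GW2580 1, and its part in these levels was not tested.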

How the results depend on the processing

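With all libraries, 0 members were called higher and 0 lower. Percentages in brackets are shares of all genes called in that direction. DESeq2 (7.27%) and no filter (7.08%) each called 1 lower (Ccne1). With limma-voom, 1 was higher (Kif20a, 4.95%) and 1 lower (Ube2c, 5.66%). Sex as a second term called 2 lower (Ccne1 and Ube2c, 5.37%). The percentage on no annotated exon as a second term called 1 higher (Mcm3, 2.48%). Unadjusted p under 0.05 at any fold gave 1 higher, where 14.7% of all genes were under that p in either direction. The same replicate numbers did not pair the samples (correlations of -0.392 to 0.135). A replicate block gave 0 higher (3.71% of all genes) and 1 lower (Ube2c, 5.27%). Leaving out 1 library at a time gave 0 to 2 higher, 0 to 4 lower and an S phase median of -0.24 to 0.44. The 2 higher (6.18% of all genes) and the median of 0.44 were without Vehicle 5. The 4 lower (Gins2, Ccne1, Ube2c and Cenpa, 5.82% of all genes) were without GW2580 2. Leaving out Vehicle 5 and GW2580 5 gave 4 higher (7.08% of all genes) and an S phase median of 0.46, and Vehicle 2 and Vehicle 5, 2 higher (5.09% of all genes) and 0.47. The next settings were chosen after seeing the data: without Vehicle 1 and GW2580 2, 3 were lower (6.40% of all genes), and without these and Vehicle 5, 5 were higher (7.37%) and 2 lower (5.87%) with an S phase median of 0.37. The 4 members called higher in male mice became 9 without Vehicle 5 and 1 without Vehicle 1 and GW2580 2. The last fit keeps only 1 male library per group, so its count cannot be set against the others. The cause of these shifts was not tested. Of 902 values of single members, 762 kept their side and direction, 107 changed sign without a call and 33, over 10 members, became calls. Library size alone moved the median of all genes to 0.23 (S phase 0.08, mitosis 0.16) and called 7.47% of all genes higher and 3.08% lower. Members near 1 CPM, such as Ccne2 and Kif20a, rest on few counts.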

Other observations

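Members under 2000 bases in summed exon length were Ccne1, Gins2, Pcna, Ccnb2, Cdc20, Cenpa and Ube2c, and 7 of 7 had a log2 fold change below 0 with all libraries, with a median of -0.57, whereas the 10292 genes of that length had a median of -0.07. Of the 13 members of 4000 bases and over, 7 were above 0 and 6 below, with a median of 0.06, beside 0.03 over the 9475 genes of that length. Without Vehicle 5, 6 of the 7 short members stayed below 0 (median -0.61), while 18 of the 21 members between 2000 and 4000 bases were above 0 (median 0.43). All genes of these 2 lengths then had medians of -0.10 and 0.04. At 4000 bases and over, the median was 0.11 for members and 0.17 for all genes. Length was looked at after the values were seen.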
